A study of Rattus norvegicus with 12 samples.

Results

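The 10 genes described here encode proteins that fuse, divide and remove mitochondria: Mfn1, Mfn2, Opa1, Dnm1l, Fis1, Mff, Bnip3, Bnip3l, Fundc1 and Pink1. They were chosen by name, as the probes that were not controls and carried 1 of these 10 gene names in the array files. The choice was made with earlier results of these data known. All 10 were represented, by 18 of the 45598 probes, and 9 of the 10 passed the filter on dim probes, among 13542 genes and transcripts tested. Fundc1 did not.

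Total RNA came from N27 cells, which the labels describe as a rat neural line of dopaminergic type, on one-colour Cy3 arrays. The 6 fipronil samples had been exposed to 25 µM of this phenylpyrazole insecticide for 24 h, and the 6 control samples were not treated. The labels do not say whether controls received a vehicle, nor whether samples of a group came from separate cultures, so the p-values reflect only how far these samples vary, and that variation may be technical. All 12 samples are of this 1 line, and of 10 listed markers of dopaminergic neurons Th and Aldh1a1 were detected well enough to be tested, whereas Ddc, Slc6a3, Pitx3, En1 and Foxa2 were well above background on 0 arrays. Of listed general neuron markers 2 of 7 were tested, and of markers of other cell types 0 of 5 were tested for astrocytes, oligodendrocytes and endothelium each, 1 of 5 for microglia and leukocytes and 1 of 5 for fibroblasts. The last, Col1a1, differed by 0.98 on the log2 scale (limma adjusted p 0.0375), and its part in the results below was not tested.

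Mitochondria continually fuse and divide. The outer membranes are joined by the mitofusins and the inner membranes by OPA1, and division is carried out by the dynamin-like GTPase DRP1, which adaptors on the outer membrane hold in place. Damaged or surplus organelles are then removed by mitophagy, in which receptors such as BNIP3, NIX and FUNDC1 bind the autophagy machinery directly, or the kinase PINK1 marks the organelle for the ubiquitin ligase parkin. Loss of PINK1 causes an inherited form of parkinsonism, which is why this pathway is much studied in dopaminergic neurons.

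The 12 arrays lay on 3 slides, and slide and treatment nearly coincide. Slide 1 held 2 control and 2 fipronil arrays, slide 2 held 4 control arrays alone and slide 3 held 4 fipronil arrays alone. Each array was scaled by its 75th percentile of signal, which ran from 245 to 279 intensity units on slide 1, from 379 to 472 on slide 2 and from 111 to 140 on slide 3. Per the file headers, slides 1 and 2 were scanned on 1 day and slide 3 on another. For each tested member, the difference on slide 1 and the difference of slide 3 minus slide 2 therefore stand beside that over the 12 arrays. In slide 3 minus slide 2, slide and treatment cannot be told apart.

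Each probe is a 60-base oligonucleotide, and the 5 sequences that follow, of 1 probe each of 5 members, show which letters were measured. Each has a forward reading frame without a stop codon, as do 14 of the 18 member probes, so this alone does not single them out. The first pair shows how far probes of related receptors differ. Of the 5, the Dnm1l probe alone is the brightest of its gene, the one whose values stand for the gene below. The sequences are given in lower case, 5′ to 3′, in the sense of the transcript. In the Bnip3 and Bnip3l probes, capitals mark the bases that are identical when these probes are aligned without gaps.
Bnip3: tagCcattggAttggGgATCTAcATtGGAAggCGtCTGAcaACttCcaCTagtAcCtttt
Bnip3l: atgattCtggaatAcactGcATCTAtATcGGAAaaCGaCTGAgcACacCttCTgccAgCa
Dnm1l: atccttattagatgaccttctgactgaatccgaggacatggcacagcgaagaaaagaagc
Mff: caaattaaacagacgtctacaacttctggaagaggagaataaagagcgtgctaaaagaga
Mfn1: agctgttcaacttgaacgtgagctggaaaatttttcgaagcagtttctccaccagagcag
The Bnip3 and Bnip3l probes overlapped by 57 bases at the best offset, with 27 matches and no identical run over 5 bases. The file headers name the assembly rn4, on which the Bnip3 probe lay on the minus strand of chr1:198683944-198686065 and the Bnip3l probe on that of chr15:46519170-46520338. Both spans are longer than the probe (2122 and 1169 bases), so each probe crosses at least 1 intron. The Bnip3l probe is annotated with a predicted transcript, as are the brightest probes of Mfn1 and Opa1 and the Dnm1l probe not printed here. The Dnm1l probe lay on chr11:86617771-86617830 (minus strand), the Mff probe on chr9:82070323-82070382 (plus strand) and the Mfn1 probe on chr2:118782965-118783024 (plus strand).

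Of the 9 tested members, 1 fell with fipronil past the threshold, an adjusted p under 0.05. Fis1, which encodes a tail-anchored adaptor of the outer membrane, fell 1.36-fold (limma adjusted p 0.0479), and its groups did not overlap (2.55% of all genes tested were lower without overlap). In these bulk samples, less RNA per cell and fewer cells holding it cannot be told apart. The other 8 members all had a lower mean with fipronil, by 0.17 to 0.51 on the log2 scale, and did not pass (adjusted p 0.0672 to 0.562, limma). Over all genes tested, 2.77% passed as lower and 2.24% as higher, and 5.01% passed in either direction, against 1 of 9 members lower and 0 higher. As reported here, 303 genes passed as higher and 375 as lower, against 150 and 435 under median scaling. After normexp background correction with an added offset of 50 intensity units, then 75th percentile scaling, 5116 passed as higher and 1660 as lower. Relative to the 75th percentile of signal, this offset is larger on slide 3 (111 to 140 units) than on slide 2 (379 to 472). The correction without the offset was not tested. At an unadjusted p under 0.05, 5 of the 9 members were lower, against 15.7% of all genes. The median member difference was -0.36, beside -0.08 over all genes tested, and 59.7% of those had a lower mean with fipronil. The normexp setting moved the all-gene median to 0.17. There Dnm1l, Mfn2 and Pink1 had positive differences, and 8 of the 9 members lay below that median. Median scaling moved it to -0.18, and all 9 members lay below it. Because the members were chosen with earlier results of these data known, these comparisons with all genes are descriptions.

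**Figure D1:**
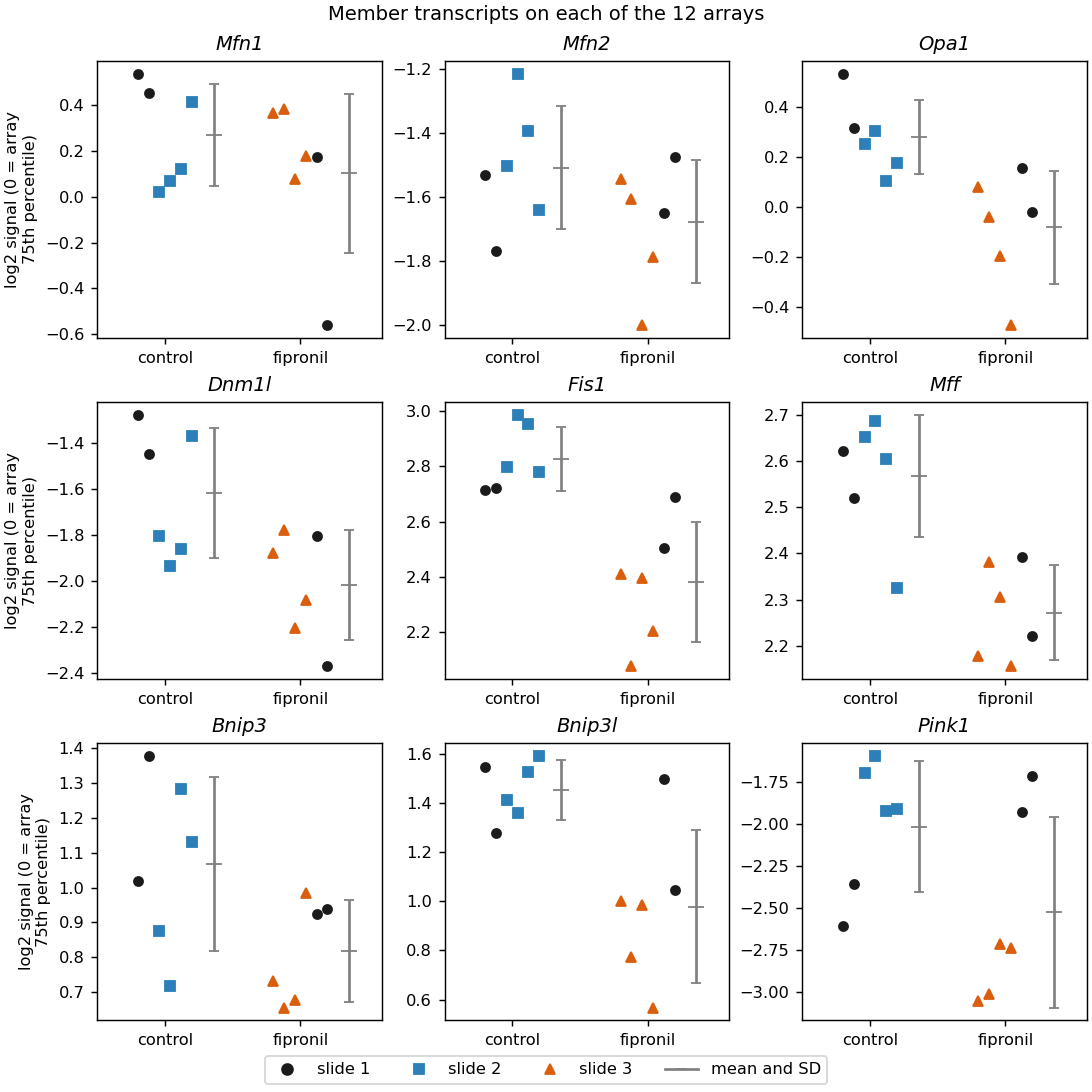
The log2 processed signal of the 9 tested members on each array, relative to that array's 75th percentile (y axis, a scale of its own in each panel), for 6 control and 6 fipronil arrays, with symbols for the slide and grey bars for the mean and SD. Fis1 is the member whose groups do not overlap, and for Pink1 the slide 1 fipronil arrays lie above the slide 1 controls while the slide 3 arrays lie below every other array.

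The fusion genes did not pass the threshold. Mfn1 encodes a mitofusin, a GTPase that tethers the outer membranes of neighbouring mitochondria. On its brightest probe, which is not the one printed above, the log2 signal, relative to the array's 75th percentile, ran from 0.02 to 0.54 in controls (median 0.27) and from -0.56 to 0.39 with fipronil (median 0.18). The groups overlapped, and fipronil replicate 8 on slide 1 lay apart at -0.56. Mfn1 differed by -0.17 ± 0.17 on the log2 scale (SE, n = 6 and 6, limma adjusted p 0.562), and the 95% interval, -0.53 to 0.19, spans 0. It was -0.69 on slide 1 and 0.10 across slides 2 and 3. The printed Mfn1 probe differed by -0.25 ± 0.13 (SE, limma adjusted p 0.261 among all kept probes), by -0.47 on slide 1 and by -0.14 across slides 2 and 3, where the signs of the probes thus differ.

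Mfn2, the other mitofusin, also links mitochondria to the endoplasmic reticulum. Its log2 signal ran from -1.77 to -1.22 in controls (median -1.52) and from -2.0004 to -1.47 with fipronil (median -1.63). The groups overlapped over most of their range. Fipronil minus control, Mfn2 differed by -0.17 ± 0.13 (SE, limma adjusted p 0.421), by 0.09 on slide 1 and by -0.30 across the other slides.

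Opa1 encodes the inner membrane fusion GTPase, which also holds the cristae in shape. On its brightest probe the log2 signal ran from 0.10 to 0.53 in controls (median 0.28) and from -0.48 to 0.15 with fipronil (median -0.03). Of the 6 fipronil arrays, 5 lay below every control. The mean of Opa1 differed by -0.36 ± 0.13 (SE, limma adjusted p 0.0975), a 1.29-fold lower mean, and it was much the same on slide 1 (-0.36) and across slides 2 and 3 (-0.37). The other probe of Opa1 differed by -0.0037 ± 0.11 (SE, limma adjusted p 0.986 among all kept probes). It was at -0.13 on slide 1 and 0.06 across slides 2 and 3. When the kept probes were averaged, Opa1 differed by -0.18 (limma adjusted p 0.253). The brighter probe is annotated with a predicted transcript and the other with a reference transcript.

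The fission genes held the member that passed. Fis1 had a log2 signal of 2.71 to 2.99 in controls (median 2.79) and 2.08 to 2.69 with fipronil (median 2.40). Every fipronil array lay below every control. Fis1 differed by -0.45 ± 0.12 (SE, n = 6 and 6, limma adjusted p 0.0479), and its 95% interval ran from -0.70 to -0.19. On slide 1 the controls were at 2.71 and 2.72 and the fipronil arrays at 2.50 and 2.69, a difference of -0.12. Across slides 2 and 3 the difference was -0.61. These differ by 0.48 ± 0.20 (SE, limma adjusted p 0.129 for the difference between them). Fis1 had 1 probe, so no other probe of the gene bears on the call.

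The call for Fis1 was lost without any 1 of the arrays except fipronil replicates 7 and 8, with limma adjusted p from 0.0662 to 0.104 without 1 of the others. It was also lost under quantile normalization (adjusted p 0.0642), median scaling (0.0761), in the deposited values (0.063), with slide as a random block (0.266), and when slide entered the limma fit as a fixed block, so that slide 1 alone gives the difference (-0.12 ± 0.17 SE, adjusted p 0.726). In that blocked fit 0.0886% of all genes passed, and 0 of the 9 members did. At an unadjusted p under 0.05 it had 3 members, against 19% of all genes: Dnm1l (-0.73) and Mfn1 (-0.69) with lower values and Pink1 (0.66) with higher ones. A block for the scan day let 0% of all genes and 0 members pass. At an unadjusted p under 0.05 it had 1 member, Mfn1 (-0.46), against 12% of all genes.

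Dnm1l encodes DRP1, the GTPase that constricts the organelle. Its log2 signal ran from -1.93 to -1.28 in controls (median -1.63) and from -2.37 to -1.78 with fipronil (median -1.98), with 3 fipronil arrays below every control and 3 within their range. Dnm1l differed by -0.40 ± 0.15 (SE, limma adjusted p 0.128), a 1.32-fold lower mean. Here the difference on slide 1 was the larger, at -0.73 against -0.24 across slides 2 and 3. The other Dnm1l probe ran over a wide range within both groups, from -2.37 to -0.80 in controls and from -3.04 to -1.39 with fipronil. Its log2 difference was -0.36 ± 0.35 (SE, limma adjusted p 0.548 among all kept probes). That probe was at -1.38 on slide 1 and at 0.15 across slides 2 and 3, where the signs of the Dnm1l probes thus differ.

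Mff encodes the outer membrane factor that recruits DRP1. The log2 signal of its brightest probe ran from 2.33 to 2.69 in controls (median 2.61) and from 2.16 to 2.39 with fipronil (median 2.26). Control replicate 8 lay lowest among the controls, and 4 of 6 fipronil arrays lay below it. Mff differed by -0.30 ± 0.10 (SE, limma adjusted p 0.0938), and by -0.26 and -0.31 in the slide 1 and the slide 3 minus slide 2 comparison. The other probe, whose sequence is printed above, differed by -0.38 ± 0.12 (SE, limma adjusted p 0.0779), and by -0.09 and -0.53 in the same 2 comparisons.

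**Figure D2:**
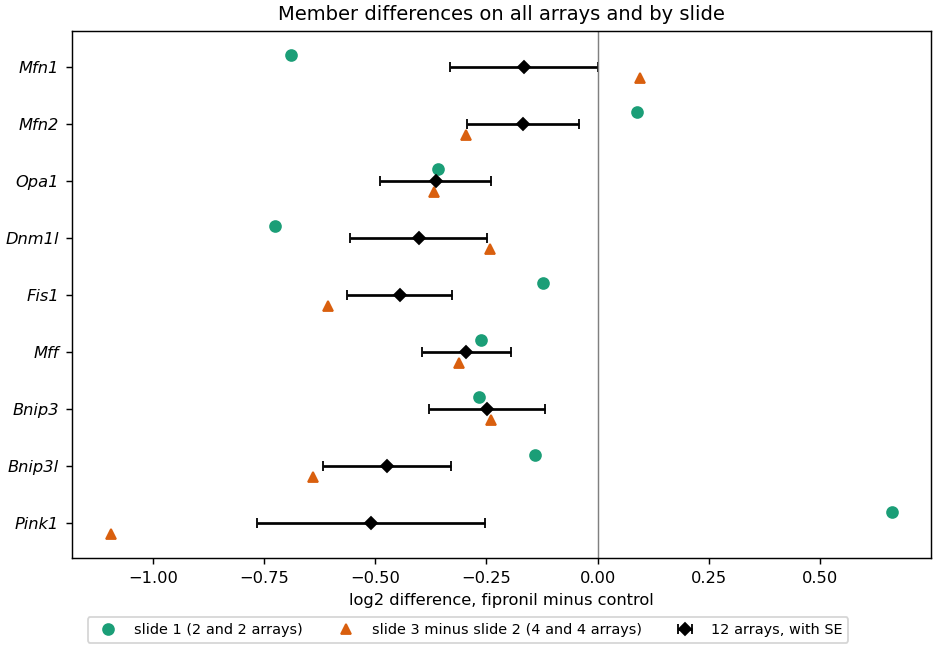
Log2 differences, fipronil minus control, of the 9 tested members (x axis): over 12 arrays with the SE of the limma fit (diamonds), on slide 1 (circles) and as slide 3 minus slide 2 (triangles). Opa1, Mff and Bnip3 have nearly the same value in all 3, and Pink1 runs from -1.10 to 0.66.

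Among the mitophagy receptors, none passed the limma threshold. Bnip3 encodes a BH3-type protein of the outer membrane that binds LC3-family proteins and is known as a target of hypoxia-inducible factor. Its log2 signal ran from 0.72 to 1.38 in controls (median 1.08) and from 0.66 to 0.98 with fipronil (median 0.83). The groups overlapped. Bnip3 differed by -0.25 ± 0.13 (SE, limma adjusted p 0.251), by -0.27 on slide 1 and by -0.24 across the other slides. The other probe, printed above, differed by -0.42 ± 0.17 (SE, limma adjusted p 0.141), and by -0.46 and -0.40 in those comparisons. Both Bnip3 probes thus had lower means in either comparison.

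Bnip3l encodes NIX, the receptor that clears mitochondria from maturing red cells. On its brightest probe the log2 signal ran from 1.28 to 1.59 in controls (median 1.47) and from 0.57 to 1.50 with fipronil (median 0.99), and 5 of 6 fipronil arrays lay below every control. Fipronil replicate 7, on slide 1, was the exception at 1.50. Bnip3l differed by -0.47 ± 0.14 (SE, limma adjusted p 0.0672), a 1.39-fold lower mean. Of the 12 fits that left out 1 array, it passed in 1, that without fipronil replicate 7 (-0.58, limma adjusted p 0.0206). In that fit 889 of all 13542 genes passed, against 678 with all 12 arrays. In the other fits Bnip3l had a limma adjusted p from 0.0504 to 0.131. The Bnip3l difference was -0.14 on slide 1 and -0.64 across slides 2 and 3. The probe annotated with a predicted transcript, printed above, differed by -0.27 ± 0.15 (SE, limma adjusted p 0.285).

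Fundc1, a receptor of mitophagy under low oxygen, had 1 probe, and it was well above background on 0 of 12 arrays, so no change in either direction could be measured.

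Pink1 had the widest split between slides. On its brightest probe, printed on 10 spots of each array, the log2 signal was -2.61 and -2.36 in the controls of slide 1 and -1.93 and -1.72 in the fipronil arrays there. Both fipronil arrays thus lay above both controls, by 0.66 on average. On slide 2 the controls ran from -1.92 to -1.60, and on slide 3 the fipronil arrays ran from -3.05 to -2.71, a difference of -1.10 between the means. Such a pattern, higher without overlap on slide 1 and lower without overlap across slides 2 and 3, was shown by 4.47% of all genes. The slide 1 difference and that across slides 2 and 3 were 1.76 ± 0.23 (SE) apart, with a limma adjusted p of 0.00864 for that contrast, which 9.14% of all genes passed and which Pink1 alone passed among the 9 members. Over the 12 arrays Pink1 differed by -0.51 ± 0.26 (SE, limma adjusted p 0.232).

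The other kept probe of Pink1, on 1 spot, differed by 0.0086 ± 0.27 on the log2 scale (SE, limma adjusted p 0.987), and by -0.23 across slides 2 and 3. Its slide 1 difference of 0.49 rests on control replicate 2, at -4.07, where the spot was not well above background. The other slide 1 control was at -2.51, and both fipronil arrays there lay below it, at -2.75 and -2.85. The remaining probe, whose rn4 span of 5040 bases crosses an intron, was well above background on 0 arrays.

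**Figure D3:**
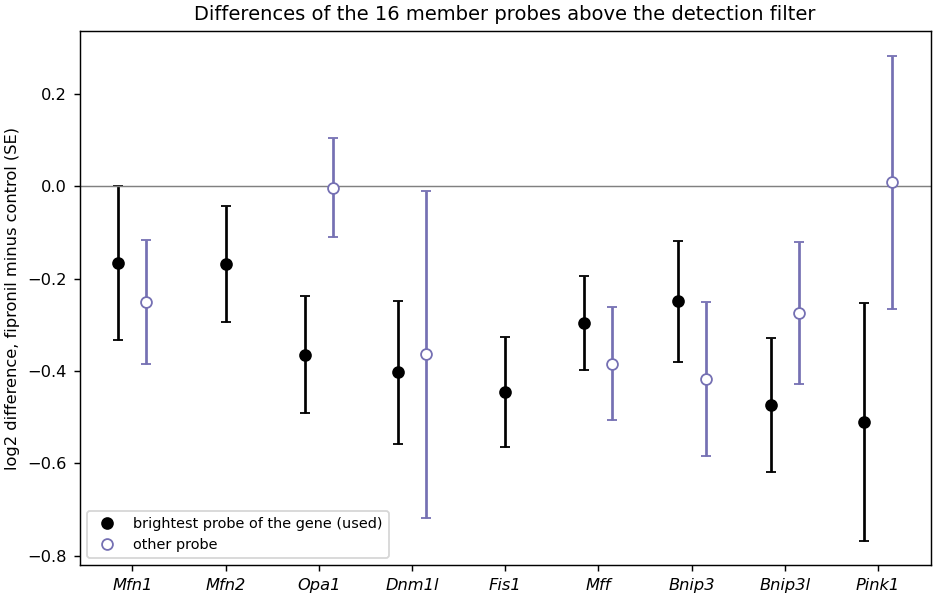
Log2 difference, fipronil minus control, of each of the 16 member probes that passed the filter on dim probes (y axis), with the SE of a limma fit over all kept probes, of which 5.3% passed an adjusted p of 0.05; filled points are the brightest probe of the gene, open points its other probe. The 12-array differences lie close for the probes of Mfn1, Dnm1l and Mff, whereas the other probes of Opa1 and Pink1 lie at -0.0037 and 0.0086.

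Of the members, 7 of 9 were lower by mean on slide 1 and 8 of 9 across slides 2 and 3, against 51.6% and 58.5% of all genes. The fipronil arrays lay below the controls without overlap for 6 of 9 members on slide 1, a pattern of 28.5% of all genes (53.7% did not overlap in either direction, as did 7 members), and for 4 of 9 across slides 2 and 3, a pattern of 16.4%. Fis1 and Opa1 did so in both. When slides 2 and 3 were taken alone, Fis1 (limma adjusted p 0.0121), Bnip3l (0.0131) and Pink1 (0.00248) passed as lower, as did 12.9% of all genes, while 22.5% passed in either direction. The members' median difference was -0.26 on slide 1, beside -0.016 over all genes, and -0.31 across slides 2 and 3, beside -0.10.

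Other genes of the pathway were taken from 7 lists with 104 genes, of which 89 were tested. Of these, 1 rose and 1 fell, against the 2.24% and 2.77% of all genes, and their median difference was -0.10. The gene that rose was Nipsnap1, which encodes a matrix protein that can mark damaged mitochondria for autophagy. Control arrays averaged 1.52 ± 0.32 on the log2 scale and fipronil arrays 2.39 ± 0.27 (SD, n = 6 each), without overlap. Nipsnap1 differed by 0.87 ± 0.17 (SE, limma adjusted p 0.0178), a 1.83-fold rise, and by 0.85 on slide 1 and 0.88 across the other slides. It was past the threshold in all 12 fits that left out 1 array, though not with slide as a fixed block (limma adjusted p 0.107).

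The gene that fell was Phb2, an inner membrane prohibitin that protects OPA1 from cleavage and can serve as a mitophagy receptor. Control arrays averaged 1.74 ± 0.17 and fipronil arrays 1.16 ± 0.27 (SD, n = 6 each), with overlap. Phb2 differed by -0.58 ± 0.14 (SE, limma adjusted p 0.033), a 1.49-fold fall, by -0.29 on slide 1 and by -0.72 across slides 2 and 3. It did not pass with slide as a fixed block (limma adjusted p 0.4927). Phb2 stayed past the threshold without control replicate 3 or fipronil replicate 7 or 8, and not without any 1 of the others (limma adjusted p 0.0521 to 0.0775).

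Of all genes tested, 59.7% had a lower mean, which is the share to set beside the list counts that follow. In the list of fusion and OPA1 processing genes 9 of 11 tested genes had a lower mean, and the median difference was -0.12. Of the fission adaptors and regulators 9 of 11 had a lower mean, with a median of -0.15 and 0 past the threshold. Dnm2, another dynamin, differed by -0.15 ± 0.14 (SE) and the phosphatase Pgam5 by -0.03 ± 0.16 (SE). On slide 1 they were at 0.03 and -0.42, and across slides 2 and 3 at -0.25 and 0.17. Of the cristae organising system, 0 of 10 passed, with a median of -0.10, and Samm50, of the outer membrane sorting machinery, differed by -0.15 ± 0.13 (SE) and Micos10 by 0.32 ± 0.15 (SE). Both, the 2 brightest of that list, had opposite signs by slide, Samm50 with 0.30 on slide 1 and -0.37 across the others, and Micos10 with -0.11 and 0.53. Dnajc11 (-0.48, limma adjusted p 0.0513) and Mtx2 (-0.38, 0.066) came nearest to the threshold there. They were lower on slide 1 (-0.55 and -0.32) and across slides 2 and 3 (-0.44 and -0.41). Dnajc11 was well above background on 3 of 6 fipronil arrays, and 6 of the 10 genes had a lower mean.

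In the PINK1-parkin pathway with its cargo receptors, 7 of 14 tested genes had a lower mean (59.7% of all genes), the median was 0.0084 and 0 passed. Park7 (DJ-1) differed by -0.29 ± 0.14 (SE) and the channel gene Vdac1 by -0.17 ± 0.12 (SE). Park7 was at 0.20 on slide 1 and -0.53 across slides 2 and 3. The list of other mitophagy receptors and partners of the ATG8 family had a median of -0.03 over 16 genes, and of 0.29 on slide 1. Genes of mitochondrial content and biogenesis had a median of -0.04 over 12 genes with 0 past the threshold, and the respiratory chain genes Atp5f1a and Cox4i1 differed by -0.11 ± 0.13 (SE) and 0.12 ± 0.14 (SE).

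The list of other targets of hypoxia-inducible factor, which leaves out the member Bnip3, had a median of -0.18 over 15 genes, and 0 passed. A lower mean was found for 10 of the 15, against 59.7% of all genes. The smallest adjusted p was that of Egln3 (-0.57, limma adjusted p 0.0545), which was at -0.75 on slide 1 and -0.48 across slides 2 and 3. Of the 2 brightest genes, Ldha differed by 0.32 ± 0.20 (SE) and Pgk1 by -0.19 ± 0.13 (SE), and neither passed. On slide 1 Ldha differed by -0.19 and Pgk1 by 0.19, the reverse of both, and Ldha was at -0.26 when its kept probes were averaged.

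**Figure D4:**
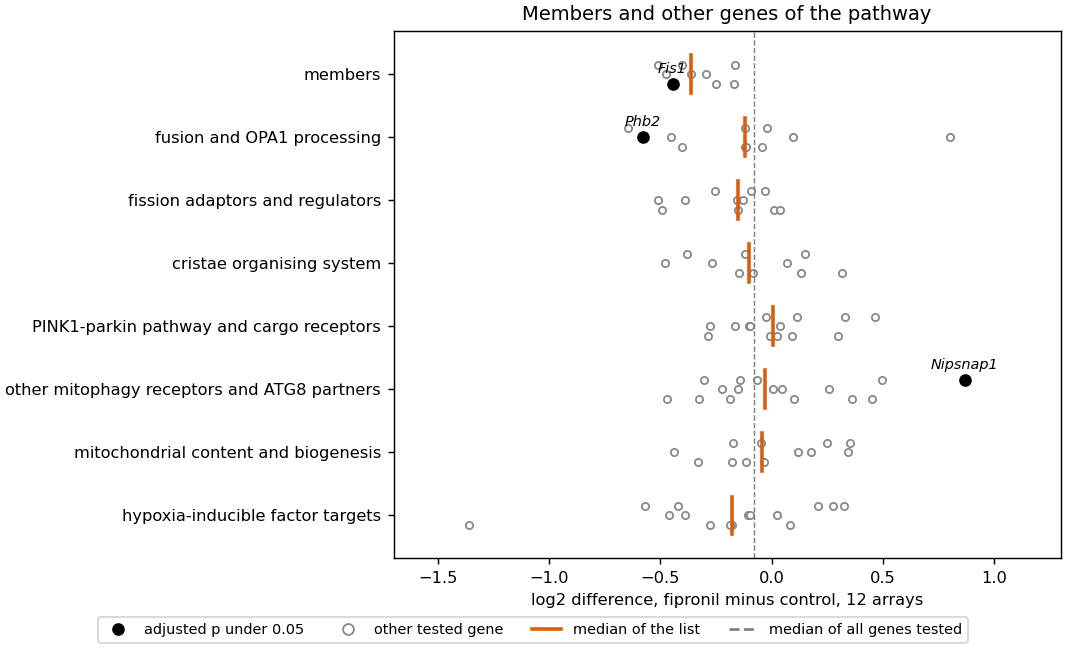
Log2 differences, fipronil minus control over 12 arrays (x axis), of the tested members and of the tested genes of 7 other lists (rows); filled points passed an adjusted p of 0.05, orange bars are list medians and the dashed line is the median of all genes tested, -0.08. The member median of -0.36 lies left of every other list's median. Members and lists were chosen with earlier results of these data known.

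The hypoxia response core was looked for in promoter sequences from RefSeq (assembly GRCr8, 250 bases before to 50 after the start), of which 7 of the 10 members had 1 or more. The letters ACGTG or GCGTG were searched on both strands, and CACGTG is counted once on each strand. Among the member promoters ACGTG was present for Bnip3, Opa1 and Pink1, and in 19.3% of all promoters. GCGTG was present in 5 of the 8 member promoters and in 29.7% of all. The Bnip3 promoter held 2 matches to each, and they lie together in the stretch shown, with the matches in capitals, from the minus strand of chr1:203155033-203155085.
Bnip3: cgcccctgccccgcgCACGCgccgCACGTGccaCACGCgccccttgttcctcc
These are matches of letters only, and they say nothing of whether a factor binds there in these cells.

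The genes whose log2 values were most like those of Fis1 over the 12 arrays, among 9540 with a symbol, were Apmap (Pearson r 0.95), Crym (0.95) and Nt5c (0.94). The values share arrays and slides, so this is a description. Apmap differed by -0.99, Crym by -0.89 and Nt5c by -0.87 over the 12 arrays, and by -0.50, 0.03 and -0.12 on slide 1. As for Fis1, the slide 1 difference of all 3 was smaller in size than that over the 12 arrays. They were picked for their likeness to Fis1 on these same arrays, so a like pattern is not a separate result.

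**Figure D5:**
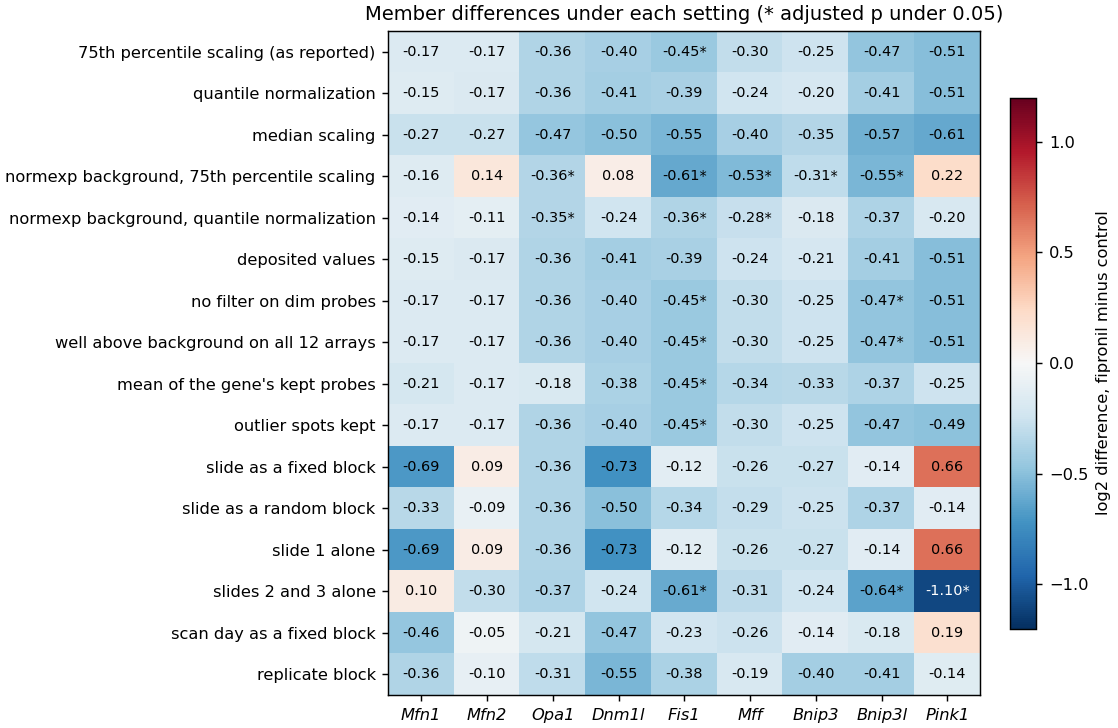
Log2 difference, fipronil minus control, of each tested member (columns) under each way of processing the data (rows), coloured from blue (lower with fipronil) to red (higher); an asterisk marks an adjusted p under 0.05. Values are below 0 in every row for Opa1, Fis1, Mff, Bnip3 and Bnip3l, and turn above 0 in some rows for Mfn1, Mfn2, Dnm1l and Pink1.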

How the data were processed

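The authors extracted spot values with Agilent Feature Extraction, 10.7 in the submitters' processing notes (the file headers name another version). The intensity used, per the file headers, had background subtracted and was detrended, without scaling between arrays, and flags are other values. The series-wide values deposited by the authors are log2, quantile-normalized per the labels, with a lowest value of 1.5. All 12 columns correlated best with their own array.

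Of 58717 spots that were not controls, outliers (323 to 711 per array) were left out unless all spots of a probe were marked, and 0 were saturated. Log2 processed signals were scaled to each array's 75th percentile and spots of a probe averaged. Probes the software called well above background on 6 or more of 12 arrays were kept (16291), and the probe with the highest mean signal stood for its gene. Apart from this choice of probe and the ranking of list genes by brightness, levels of different probes were not compared. Names came from RefSeq by accession for 21109 probes. Groups were compared with limma 3.58.1 in R 4.3.3 (data.table version 1.17.8), two-sided, with Benjamini-Hochberg adjustment over all genes at 0.05. The fit was tested on simulated data. The number of arrays limits the precision.

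Members and lists were chosen with earlier results of these data known. Named were all members, up to 3 called genes of each list, or its 2 brightest where none passed, and the 3 genes most like a called member. Alternatives were other normalizations, backgrounds, filters, probe summaries, slide and replicate blocks, and each array left out. The normexp background had an offset of 50 intensity units added. The probe-level fit, the scan day block and the contrast between slides were chosen after seeing the data.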

Additional observations from a re-analysis of the deposited data

Results flagged for a closer look

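Among 42 groups of 6 values checked for an array apart from the rest, 2 stood out, and chance alone marks about 1 in 20. For Mfn1, fipronil replicate 8 had a log2 signal of -0.56, while the other fipronil arrays ran from 0.08 to 0.39. For Micos10, a subunit of the cristae organising system, control replicate 8 was at 4.30, while the other controls ran from 4.64 to 4.80.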

How the results depend on the processing

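Opa1, Fis1, Mff, Bnip3 and Bnip3l kept their direction under every setting run. For Opa1, however, the other kept probe was at -0.0037 over the 12 arrays and at 0.06 across slides 2 and 3. Averaging its kept probes gave -0.18. Of the 9 tested members 1 passed as reported, and 0 passed under quantile normalization, median scaling, the deposited values, slide as a fixed or random block, slide 1 alone, the scan day block and the replicate block. With a normexp background 5 passed under 75th percentile scaling, against 6776 of all 13542 genes tested, and 3 under quantile normalization, against 1012. Without the filter 2 of 10 members passed, against 16314 of 36180 genes. With probes well above background on all 12 arrays 2 members passed, against 965 of 10608 genes. On slides 2 and 3 alone 3 members passed, against 3044 of 13542 genes. Other pathway genes past the threshold (2 as reported) numbered 4, 4 and 4 under quantile normalization, median scaling and the deposited values, 0 under each block and on slide 1 alone, 39 and 8 with a normexp background, 24 and 12 under the filters and 20 on slides 2 and 3 alone. All genes past the threshold (678 as reported) numbered 6776 after normexp and 75th percentile scaling, 16314 without the filter, 12 and 21 with slide as a fixed or random block, 0 on slide 1 alone, with the scan day block and with the replicate block (limma; 2140, 1630 and 2164 at an unadjusted p under 0.05), and 3044 on slides 2 and 3 alone. Leaving out 1 array gave 0 to 2 members, 1 to 18 other pathway genes and 228 to 2022 genes in all. Without fipronil replicate 8 the count of all genes was the highest.

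Directions reversed as follows, and the cause was not tested. After normexp with its offset of 50 intensity units and 75th percentile scaling, Dnm1l was at 0.081, Mfn2 at 0.14, Pink1 at 0.22 and Cox4i1 at -0.15. With slide as a fixed block, and equally on slide 1 alone, Mfn2 was at 0.088, Pink1 at 0.66, Park7 at 0.20, Micos10 at -0.11, Samm50 at 0.30, Dnm2 at 0.031, Ldha at -0.19 and Pgk1 at 0.19. With the scan day block Pink1 was at 0.19, Micos10 at -0.056, Samm50 at 0.16, Ldha at -0.18 and Cox4i1 at -0.015. On slides 2 and 3 alone Mfn1 was at 0.10 and Pgam5 at 0.17. Pgam5 was at 0.010 under quantile normalization, at 0.013 with normexp and quantile normalization and at 0.0098 in the deposited values, and reached 0.021 to 0.060 without control replicate 2 or fipronil replicate 7 or 8. Averaging kept probes put Ldha at -0.26, and the other kept probe put Pink1 at 0.0086.

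Control and fipronil arrays share the numbers 2, 3, 7 and 8, with correlations of their deviations of 0.43, 0.08, -0.11 and -0.31. Of these 8 arrays, 1 correlated best with its own number. The arrays of each shared number lay on different slides, so this check cannot tell whether they share more than a number. With the replicate block Samm50 was at 0.045 and Atp5f1a at 0.030, and Fis1 had a limma adjusted p of 0.307. Slide nearly coincides with treatment, and the fit rests on 2 arrays a group where both share a slide. The Fundc1 probe was not well above background on any array, which limits what can be said of it.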
